A study of Mus musculus with 9 samples.

Results

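The 10 genes described here carry the main steps of antigen presentation by major histocompatibility complex (MHC) class I, and were taken from the deposited expression table as the rows whose gene symbol equals a listed name. All 10 of 10 were found among 23799 genes: the light chain gene B2m, the heavy chain genes H2-D1, H2-K1, H2-T23 and H2-Q7, the peptide transporter genes Tap1 and Tap2, the loading gene Tapbp, the immunoproteasome gene Psmb8 and the transcriptional activator gene Nlrc5. They were named by their function and not by any value in the table. All 10 passed the filter on low values used for testing (1 RPKM or more in 2 or more libraries), as 12832 genes did. RPKM counts reads per kilobase of gene after scaling to the library's size, which lets levels of different genes be set side by side.

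Class I molecules show peptides of a cell's own proteins on its surface, where CD8 T cells read them and natural killer cells sense their loss. The proteasome cuts proteins into peptides, the TAP transporter moves the peptides into the endoplasmic reticulum, tapasin helps to load them, and the heavy chain leaves for the surface together with beta-2-microglobulin. Interferon-gamma raises most of these genes, and tumours are known to escape T cells by losing them.

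RNA had been sequenced from 9 libraries of sorted tumour cells, of orthotopic mouse models by the labels. For breast cancer (BC), GFP-sorted cells descended from 4T1-eGFP, the mouse mammary line 4T1 carrying a green reporter, at 28 days: primary tumours 1 and 5 and lung metastases 4 and 6. For pancreatic ductal adenocarcinoma (PDAC), YFP-sorted cells came from mice that all carried p48-Cre, p53F/+, KrasL/+ and the ROSA-LSL-YFP reporter. Those numbered 1 (primary, liver metastasis and lung metastasis) carried SIRT6F/F as well and were at 25.67 weeks, and those numbered 5 (primary and liver metastasis) did not and were at 28.95 weeks. p48-Cre drives recombination from the pancreatic Ptf1a gene, and the YFP reporter marks any cell that has recombined, tumour or not. The SIRT6 alleles and the age cannot be told apart from the library number. All BC cells come from 1 line, and the labels do not say whether BC libraries of a group came from separate mice. P-values therefore measure the spread between these libraries.

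The libraries differed widely in depth and in cell markers. The estimated reads on genes ran from 21300000 to 128000000, and 9530 to 20478 genes were above 0. The 6 markers of tumour epithelium (Epcam, Cdh1 and keratins) summed to 2850 to 5730 RPKM in BC. They summed to only 132 RPKM in the PDAC lung metastasis and 221 RPKM in PDAC liver metastasis 5. Whether tumour cells were few or only weakly marked there was not tested. In the PDAC libraries other than primary 5, the 6 leukocyte markers summed to 643 to 3160 RPKM, against 32.4 to 110 RPKM in BC. PDAC primary 5 had the least of this signal, at 60.4 RPKM, and the most tumour epithelium, at 14200 RPKM. Haemoglobin genes made up 10.9 to 38.9% of the summed RPKM in the PDAC libraries other than primary 5. Leukocytes are known to express class I genes strongly.

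The 3 heavy chain genes H2-K1, H2-D1 and H2-Q7 and the light chain gene B2m are known to be switched on through a shared promoter layout, and their promoters are shown because these genes are read together below. Promoter windows of 250 bases before to 50 after the annotated start were matched by symbol in RefSeq (build GRCm38.p6) for 8 of the 10 genes. Tap2 and Nlrc5 had no entry. The stretch just before the start is printed 5′ to 3′ on the gene's strand, with motif matches in capitals.
H2-K1: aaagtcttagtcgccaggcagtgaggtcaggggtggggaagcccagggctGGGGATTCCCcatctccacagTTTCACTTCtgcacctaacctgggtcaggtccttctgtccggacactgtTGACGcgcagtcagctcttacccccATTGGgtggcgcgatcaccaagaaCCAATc
H2-D1: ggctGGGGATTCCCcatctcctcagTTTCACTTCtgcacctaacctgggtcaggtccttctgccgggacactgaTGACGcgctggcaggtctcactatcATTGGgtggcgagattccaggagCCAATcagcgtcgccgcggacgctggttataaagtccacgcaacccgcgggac
H2-Q7: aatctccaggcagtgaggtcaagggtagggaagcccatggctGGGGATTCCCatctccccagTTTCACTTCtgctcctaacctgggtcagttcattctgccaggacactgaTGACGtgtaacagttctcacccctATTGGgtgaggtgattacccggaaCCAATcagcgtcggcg
B2m: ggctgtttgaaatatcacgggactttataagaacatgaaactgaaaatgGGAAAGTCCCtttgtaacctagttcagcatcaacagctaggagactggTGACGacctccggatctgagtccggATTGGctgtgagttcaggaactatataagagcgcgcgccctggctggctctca

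These stretches lie at chr17:34000334-34000508 (H2-K1, minus strand, from the 2nd of 2 annotated starts), chr17:35262919-35263093 (H2-D1, plus strand), chr17:35438980-35439154 (H2-Q7, plus strand) and chr2:122147512-122147686 (B2m, plus strand). The motifs, chosen with the series' results known, were searched on both strands and none of the matches overlapped. The capitals mark GGG and TT and CC with 2 and then 1 free base between them, a form bound by NF-kB, GAANNGAAA, an interferon response form, TGACG, the core of a cyclic AMP response element, and CCAAT, bound by NF-Y. In the H2-K1, H2-D1 and H2-Q7 stretches all 4 kinds followed each other in the same order. Between first bases, the NF-kB form stood 21, 21 and 20 bases before the interferon form, which stood 49 bases before TGACG in each of the 3, and TGACG stood 25, 25 and 24 bases before the nearer CCAAT. B2m had the NF-kB form 48 bases before TGACG and TGACG 25 bases before CCAAT, with no match to GAANNGAAA in the window. Its stretch does hold GAAACTGAAA just before the NF-kB form. This has 1 more base between GAA and GAAA, so the search did not cover it. From the first to the last match, H2-D1 was 87.1% identical to H2-K1 and 83.1% to H2-Q7, and B2m was 40.0 to 47.6% identical to these stretches. Gaps counted as differences. The B2m stretch had 78 bases, of which 50 to 59 were identical, against 122 to 124 bases in the others, so its lower figure partly reflects length. TGACG with CCAAT within 30 bases was in the windows of 4 of the 8 genes and in 3.05% of 32851 windows. The NF-kB form was in 4 of the 8 against 4.79% of windows, the interferon form in 3 against 7.52%, TGACG in 5 against 20.8%, CCAAT in 7 against 37.4%, and TTCNNNGAA, the form of a gamma-activated site, in 1 (Psmb8) against 8.30%. A match is a run of letters and not a site shown to be used, and a window without a match says nothing about the factor.

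**Figure D1:**
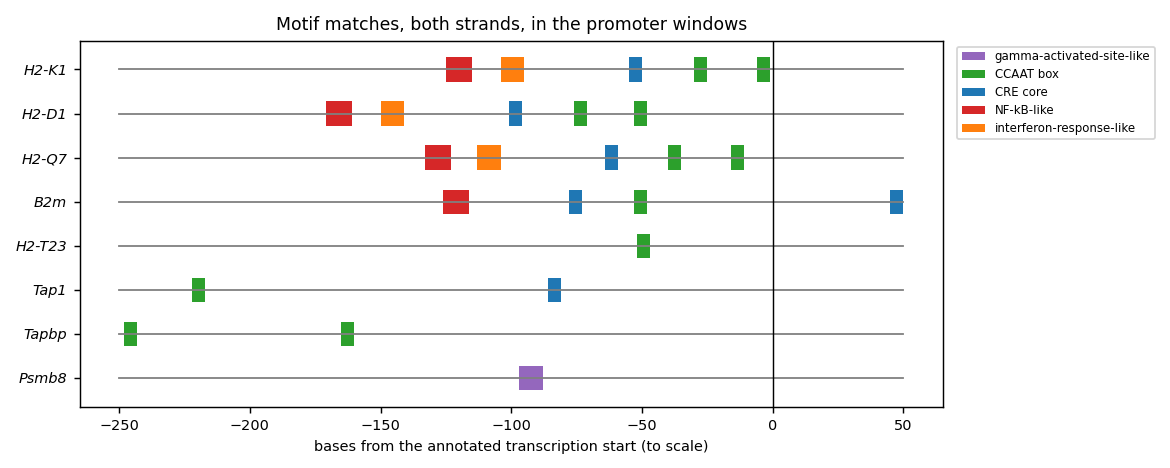
Matches to 5 motifs on either strand in the promoter windows of 8 class I genes, drawn to scale; the x axis is the distance in bases from the annotated start (0), each grey line is 1 window, and each coloured box is 1 match. In H2-K1, H2-D1 and H2-Q7 the NF-kB, interferon, TGACG and CCAAT boxes stand in the same order and at like distances, shifted as a block. B2m has the same order without a match to GAANNGAAA, the only interferon response form searched.

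B2m, the light chain shared by all class I molecules, had the highest level of the 10 genes in 7 of the 9 libraries. BC primaries 1 and 5 had 2410 and 2650 RPKM of it, and BC lung metastases 4 and 6 had 4960 and 8300 RPKM, the 3rd highest level of all genes in both. In PDAC, primaries 1 and 5 had 1360 and 938 RPKM, liver metastases 1 and 5 had 1010 and 1450 RPKM, and the lung metastasis had 1330 RPKM, at ranks 40 to 89. The order was thus BC metastases, BC primaries and PDAC, with no overlap between these, while the 3 PDAC sites overlapped. The estimated reads behind these values were at least 14563 in every library.

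H2-D1 and H2-K1 encode the classical heavy chains, which present to CD8 T cells. For H2-D1, BC primaries 1 and 5 had 1630 and 1380 RPKM, BC lung metastases 4 and 6 had 3150 and 2040 RPKM, PDAC primaries 1 and 5 had 1460 and 593 RPKM, PDAC liver metastases 1 and 5 had 984 and 2630 RPKM, and the PDAC lung metastasis had 963 RPKM. For H2-K1 the same libraries had 967 and 789 RPKM, 1920 and 1540 RPKM, 1210 and 154 RPKM, 497 and 514 RPKM, and 717 RPKM. The BC lung metastases were above the BC primaries for both genes, and PDAC primary 5 was the lowest library for both. H2-D1 was above H2-K1 in 9 of 9 libraries, but unequally: the ratio of H2-K1 to H2-D1 was 0.569 to 0.756 in BC and 0.196 in PDAC liver metastasis 5, where H2-D1 was high and H2-K1 was not, and 0.260 in PDAC primary 5.

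H2-T23 encodes Qa-1, which presents leader peptides of other class I chains to NKG2A receptors, and H2-Q7 encodes a Qa-2 chain. For H2-T23, BC primaries had 57.6 and 93.4 RPKM, BC lung metastases 194 and 112 RPKM, PDAC primaries 1 and 5 had 96.9 and 1.31 RPKM, PDAC liver metastases 43.7 and 45.8 RPKM, and the PDAC lung metastasis 79.3 RPKM. H2-Q7 followed at 22.2 and 18.1 RPKM, 51.1 and 44.5 RPKM, 31.0 and 0.494 RPKM, 17.4 and 10.8 RPKM and 35.1 RPKM. Both had their lowest value by far in PDAC primary 5, where about 119 and 66.1 estimated reads stood behind them. PDAC primary 1, by contrast, was above both BC primaries for both genes. The order H2-D1, H2-K1, H2-T23, H2-Q7 held in 9 of 9 libraries. Heavy chain genes are close copies that also vary between mouse strains, the labels name no strain, and how shared reads were assigned is not given in the sources used here, so the level of each heavy chain gene by itself is uncertain.

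Tap1 and Tap2 encode the 2 chains of the peptide transporter, which works only as a pair. In BC, Tap1 was at 27.1 and 19.0 RPKM in primaries 1 and 5 and 48 and 10 RPKM in BC lung metastases 4 and 6. In PDAC it was at 17.7 and 0.0117 RPKM in primaries 1 and 5, 4.72 and 9.60 RPKM in the liver metastases and 0.0143 RPKM in the lung metastasis. The value in PDAC primary 5 amounts to about 2 reads and that in the lung metastasis to about 1 read, so Tap1 was at the limit of detection in both. Tap2 was at 71.4 and 52.5 RPKM, 124 and 40.8 RPKM, 57.8 and 4.39 RPKM, 20.1 and 49.9 RPKM and 41.9 RPKM over the same groups. Tap2 was above Tap1 in 9 of 9 libraries, with a Tap1 to Tap2 ratio of 0.246 to 0.387 in BC and 0.193 to 0.306 in the 3 other PDAC libraries. In the PDAC lung metastasis Tap2 was thus at a level like that of PDAC liver metastasis 5 while Tap1 was nearly absent.

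Tapbp encodes tapasin, which bridges the transporter and the heavy chain. BC primaries had 245 and 253 RPKM of it, BC lung metastases 4 and 6 had 304 and 131 RPKM, PDAC primaries 1 and 5 had 75.5 and 84.6 RPKM, PDAC liver metastases 46.8 and 64.0 RPKM, and the PDAC lung metastasis 25.7 RPKM. Every PDAC library was below every BC library. Unlike the other genes, Tapbp was not low in PDAC primary 5, which had the highest PDAC value. In GENCODE M21, 24.9% of its exonic bases lie opposite exons of other genes, as do 18.5% for Tap2 and 14.7% for Psmb8. The library kit does not mark strand, so reads there cannot be told apart.

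Psmb8 encodes the immunoproteasome subunit that takes the place of the constitutive subunit Psmb5. BC primaries had 282 and 163 RPKM of Psmb8, BC lung metastases 555 and 582 RPKM, PDAC primaries 1 and 5 had 234 and 19.8 RPKM, PDAC liver metastases 86.7 and 87.0 RPKM, and the PDAC lung metastasis 127 RPKM. Psmb5 lay between 55.2 and 134 RPKM over all 9 libraries. The ratio of Psmb8 to Psmb5 was 2.60 and 2.95 in BC primaries, 5.47 and 4.35 in BC lung metastases, 3.35 and 0.173 in PDAC primaries 1 and 5, 0.900 and 1.55 in the liver metastases and 2.00 in the PDAC lung metastasis. Psmb5 was above Psmb8 in 2 libraries, PDAC primary 5 and PDAC liver metastasis 1. Psmb10, the immunoproteasome partner of Psmb7, ran from 74.8 to 681 RPKM in 8 libraries and was at 0.151 RPKM in PDAC primary 5, while Psmb7 was at 58.7 RPKM there. Psmb6, whose place Psmb9 takes, had its highest value in that library, 532 RPKM. The row named Psmb9 was at 0.0159 RPKM or lower in every library under an identifier that GENCODE M21 does not hold, and was not read as a level.

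**Figure D2:**
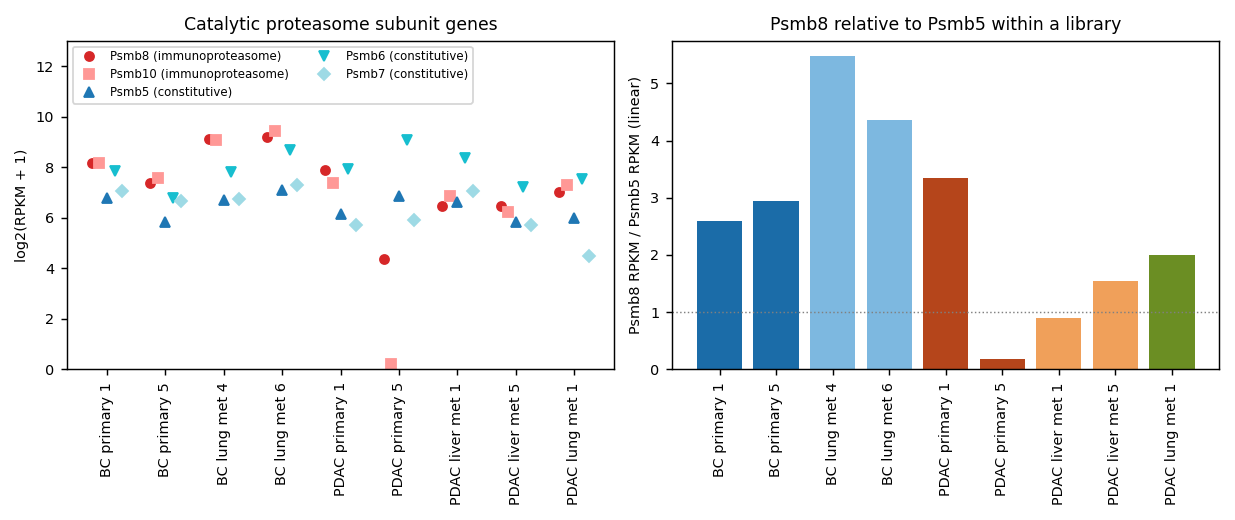
Left, the levels of 5 catalytic proteasome genes in each of the 9 libraries as log2(RPKM + 1), with immunoproteasome genes in red tones and constitutive genes in blue tones, spread sideways only to keep points apart; right, the ratio of Psmb8 to Psmb5 RPKM per library on a linear axis from 0, with a dotted line at 1. The ratio is highest in the BC lung metastases (5.47 and 4.35) and lowest in PDAC primary 5 (0.173), where Psmb10 is near 0.

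Nlrc5 encodes the activator that binds the class I promoter complex. It was the lowest of the 10 genes in 8 of 9 libraries. BC primaries 1 and 5 had 1.11 and 4.87 RPKM, BC lung metastases 4 and 6 had 2.09 and 0.00293 RPKM, and PDAC primary 1 had 1.19 RPKM. PDAC liver metastasis 5 had 3.91 RPKM and the PDAC lung metastasis 2.09 RPKM, and PDAC primary 5 and PDAC liver metastasis 1 listed it at 0. These levels did not run with those of the heavy chains: BC lung metastasis 6, with about 1.2 estimated reads of Nlrc5, had 1540 RPKM of H2-K1 and the highest B2m of all libraries.

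**Figure D3:**
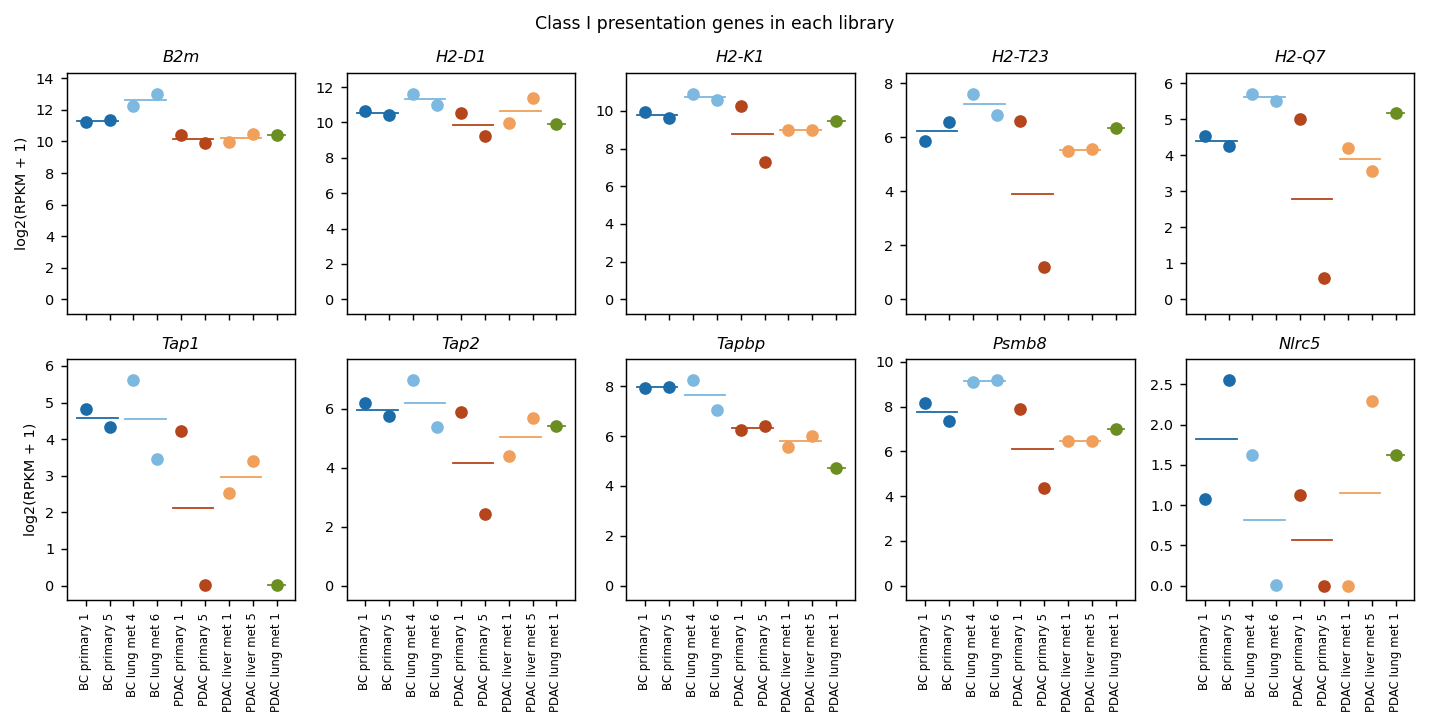
Level of each of the 10 class I genes in each of the 9 libraries as log2(RPKM + 1); each point is 1 library, coloured by group, and the short lines are group means (PDAC lung metastasis is 1 library). PDAC primary 5 is the lowest point for B2m, the heavy chain genes, Tap1, Tap2 and Psmb8, with the PDAC lung metastasis nearly as low for Tap1. For B2m and Tapbp all 5 PDAC points lie below all 4 BC points.

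In the BC model, B2m, the 4 heavy chain genes and Psmb8 were higher in both lung metastases than in both primaries, while the transporter genes, Tapbp and Nlrc5 were not. This was 6 of 10 genes, against 15.8% of the 12832 genes tested, and none of the 10 was lower in both metastases, against 27.0% of genes. B2m was 1.34 ± 0.47 higher on the log2(RPKM + 1) scale (SE, 2 against 2 libraries), Psmb8 1.40 ± 0.96, H2-Q7 1.21 ± 1.30, H2-T23 1.0 ± 1.38, H2-K1 0.97 ± 0.80 and H2-D1 0.75 ± 0.62. Tap2 differed by 0.22 ± 1.12, Tap1 by -0.03 ± 1.46, Tapbp by -0.32 ± 0.64 and Nlrc5 by -1.0 ± 1.05. The median of the 10 differences was 0.86, beside -0.29 over all genes tested. It was 0.20 (all genes -0.06) with quantile scaling, where H2-K1 was at 0.20 and H2-D1 at 0.19, and 0.38 (all genes -0.65) when rescaled without haemoglobin.

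None of these differences passed the test. Limma with Benjamini-Hochberg adjustment called 0 of the 10 genes at an adjusted p under 0.05 (B2m, adjusted p = 0.974), and called 0 of all genes (percent called 0.0). At an unadjusted p under 0.05 it counted 265 genes (2.07%), of which B2m was 1. With only the 4 BC libraries in the fit it called 73 genes, none of them among the 10. Without lung metastasis 4 the median of the 10 was 0.52 (all genes -0.55), with 6 of 10 differences above 0. Without lung metastasis 6 it was 1.06 (all genes -0.02), with 9 of 10. The median of all genes thus moved in the same direction.

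Class II genes stood higher in the same metastases, and some neutrophil markers did. The 10 class II genes summed to 415 and 823 RPKM in the primaries against 5190 and 4660 RPKM in the metastases, with Cd74, the class II invariant chain, at 262 and 488 against 2980 and 2700 RPKM. The 8 neutrophil markers summed to 27.2 and 26.6 RPKM against 2350 and 1470 RPKM. In lung metastasis 6 this sum came from S100a8 (939 RPKM), S100a9 (411 RPKM) and Retnlg (120 RPKM), the 3 of 8 at 1 RPKM or more, while Ly6g was listed at 0 and the median marker, at 0.537 RPKM, was below the 0.631 and 0.844 RPKM of the primaries. The 6 leukocyte markers summed to 32.4 and 53.0 RPKM against 110 and 46.4 RPKM, and the pan-leukocyte gene Ptprc was at 0.316 and 1.40 against 1.26 and 0 RPKM. The 9 T and NK cell markers summed to 3.61 and 7.57 RPKM against 19.6 and 0.0190 RPKM, and the 10 macrophage markers to 442 and 660 against 587 and 400 RPKM. In lung metastasis 6 the T cell gene Cd3e and the macrophage gene Csf1r were listed at 0, while 7 of the 10 macrophage markers were above 0. That library listed 10938 genes above 0, against 18685 and 20478 in the primaries. The part of other cells in the class I levels was not tested, and more class I RNA per cell and more cells of a type that is rich in it cannot be told apart in bulk libraries.

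In PDAC, no class I gene was higher in both liver metastases than in both primaries, against 15.4% of genes, and Tapbp alone was lower in both, against 10.2%. For H2-K1, H2-T23, H2-Q7, Tap1, Tap2 and Psmb8 both liver metastases lay between primary 5, which was lower, and primary 1, which was higher. How many of all genes had this order was not counted, and primary 5 was above primary 1 for 34.1% of all genes. The differences of group means were 1.60 ± 1.38 for H2-T23, 1.09 ± 1.30 for H2-Q7, 0.88 ± 1.12 for Tap2, 0.84 ± 1.46 for Tap1, 0.79 ± 0.62 for H2-D1, 0.10 ± 0.47 for B2m and -0.54 ± 0.64 for Tapbp (log2, SE, 2 against 2 libraries). Limma called 0 of the 10 (adjusted p = 0.886 for H2-D1 and 0.894 for H2-T23) and 1 of 12832 genes (0.00779%). At an unadjusted p under 0.05 it counted 821 genes (6.40%) and none of the 10. In liver metastases 1 and 5 the 8 neutrophil markers summed to 8760 and 190000 RPKM, against 1170 and 13.8 RPKM in the same-numbered primaries. The 10 macrophage markers summed to 12400 and 11700 against 2820 and 942 RPKM. Hepatocyte markers summed to 826 and 2150 against 1.91 and 248 RPKM. B and plasma cell markers, at 6210 and 10100 RPKM, lay between the 32400 and 2.02 RPKM of the primaries. The part of these cells was not tested.

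The direction depended on which primary served as the reference. Against PDAC primary 1 alone, the 2 liver metastases averaged lower for 8 of the 10 genes (median -0.97, beside -0.12 over all genes). Against PDAC primary 5 alone they averaged higher for 9 of the 10 (median 1.89, beside 0.55). H2-T23 went from -1.10 to 4.31, Psmb8 from -1.42 to 2.08 and H2-K1 from -1.26 to 1.71, while Tapbp stayed below 0 at -0.46 and -0.62. In a fit without primary 1, where primary 5 is the only primary and its spread is taken from the other groups, limma called H2-T23 (adjusted p = 0.0127) and H2-Q7 (3.30, adjusted p = 0.0441), beside 1032 of all genes. Without primary 5 it called none of the 10. Within number 1, liver metastasis was below primary for 10 of 10 genes (median -1.13), and above it for 41.0% of all genes (median -0.14). Within number 5 it was above for 9 of 10 (median 2.22), and for 64.7% of all genes (median 0.72). The pairs from the same genotype and age label thus went opposite ways, and so did the medians of all genes.

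**Figure D4:**
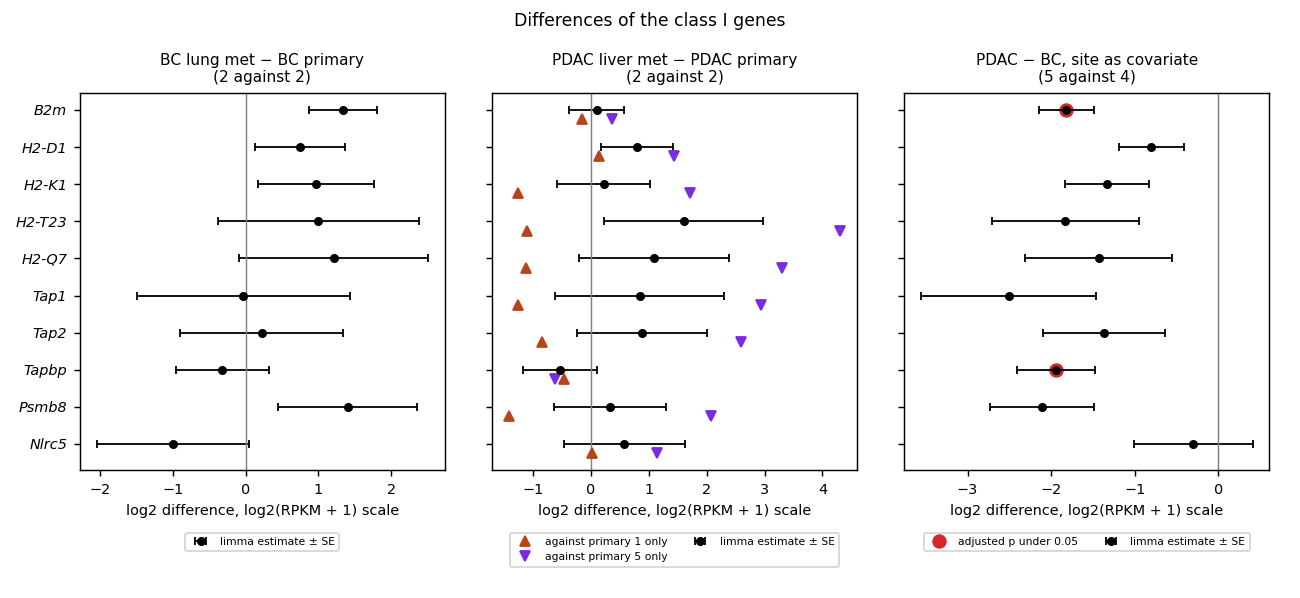
Differences of the 10 class I genes on the log2(RPKM + 1) scale for BC lung metastasis minus primary, PDAC liver metastasis minus primary, and PDAC minus BC with site as a covariate; black points and bars are limma estimates ± SE (2 against 2, 2 against 2, and 5 against 4 libraries), triangles set the PDAC liver metastases against each primary alone, and red rings mark an adjusted p under 0.05. Only B2m and Tapbp in the right panel are ringed, and in the middle panel the triangles fall on opposite sides of 0 for 7 genes.

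The 2 PDAC primaries stood far apart from each other in class I genes. Primary 5 was below primary 1 for 9 of the 10 genes, with a median of -3.21 on the log2 scale beside -0.53 over all genes, as a description of 2 libraries without a test. H2-K1 was 7.85-fold, Psmb8 11.8-fold, Tap2 13.2-fold, H2-Q7 62.7-fold and H2-T23 73.7-fold lower in primary 5 than in primary 1, while B2m was 1.45-fold lower and Tapbp 1.12-fold higher. The class I genes were thus not low as a block: B2m, at 938 RPKM, lay just below the 1010 to 1450 RPKM of the other PDAC libraries, and Tapbp, at 84.6 RPKM, above their 25.7 to 75.5 RPKM. Most lists of markers of other cells were lower in primary 5 as well. The 10 class II genes summed to 43700 RPKM in primary 1 and 623 RPKM in primary 5, the B cell gene Cd79a was at 1720 and 0.110 RPKM, Ptprc at 23.9 and 0.00549 RPKM, Cd3e at 29.9 RPKM and listed at 0, and 0 of 6 endothelial markers were above 0 in primary 5. Epcam went the other way, at 52.9 and 1150 RPKM, and so did Krt18, at 1390 and 8160 RPKM, and the 7 hepatocyte markers, which summed to 1.91 and 248 RPKM, of which Apoa1 made up 1.48 and 245 RPKM. Primary 5 also listed 10410 genes above 0, against 15907 in primary 1. The part of these markers and of the number of listed genes in the class I difference was not tested, and it cannot be told apart from the SIRT6 alleles and the age.

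**Figure D5:**
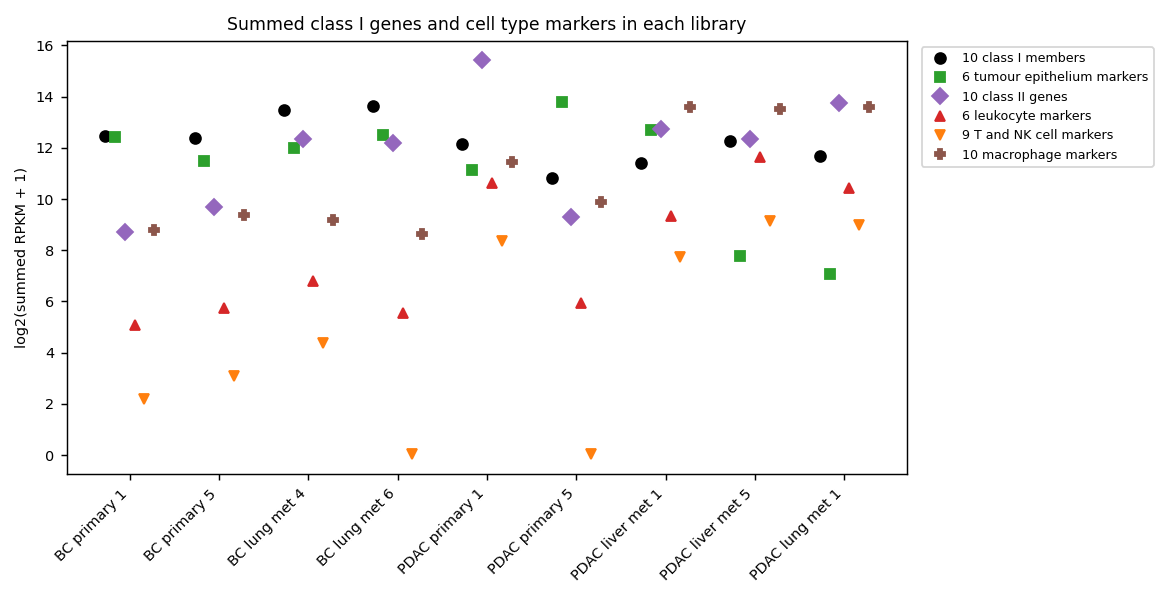
Summed RPKM of the 10 class I genes and of 5 marker lists in each of the 9 libraries, as log2(summed RPKM + 1), spread sideways only to keep points apart. PDAC primary 5 has the lowest class I sum (1800 RPKM) together with the highest tumour epithelium sum (14200 RPKM) and nearly no T and NK cell signal (0.0298 RPKM). BC lung metastasis 6 has as little T and NK cell signal (0.019 RPKM) with the highest class I sum (12800 RPKM). The BC libraries have high class I sums (5420 to 12800 RPKM) with leukocyte sums of at most 110 RPKM.

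The PDAC lung metastasis, a single library set against the PDAC primaries, was given the spread estimated from the replicated groups. H2-T23 differed by 2.42 ± 1.69, H2-Q7 by 2.39 ± 1.59, Tap1 by -2.10 ± 1.79 and Tapbp by -1.60 ± 0.79 (log2, SE, 1 against 2 libraries). Limma called 0 of the 10 genes, beside 75 of all genes (0.584%), and at an unadjusted p under 0.05 it counted 1765 genes (13.8%) and none of the 10, with an adjusted p of 0.413 for Tapbp and 0.595 for H2-T23. Without PDAC primary 1, which leaves 1 library against 1, it called H2-T23 and H2-Q7, beside 1547 of all genes, and without PDAC primary 5 H2-T23 was at -0.28. Of the other pathway genes, Calr, the chaperone calreticulin, which holds the heavy chain before peptide loading, fell by 5.82 ± 0.85 (adjusted p = 0.0348), from 83.2 and 182 RPKM to 1.2 RPKM. It was called in 10 of 17 alternatives, all below 0. The call was lost with the replicate block (-5.64, adjusted p = 0.106), with no trend and no robust moderation (0.0658), with only the compared groups in the fit (0.567), and without BC primary 1 (0.105), BC primary 5 (0.108), BC lung metastasis 4 (0.107) or BC lung metastasis 6 (0.101). Surfactant and airway markers of lung epithelium summed to 35900 RPKM in this library, against 0.289 and 2.13 RPKM in the primaries, and their part in these values was not tested.

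Over both models together, with the model as a covariate, metastases and primaries (5 against 4 libraries) differed by 0.69 ± 0.33 for B2m and 1.48 ± 0.88 for H2-T23. Without PDAC primary 5 H2-T23 was at 0.22, without PDAC primary 1 it was at 2.53, and without BC lung metastasis 6 B2m was at 0.44. Limma called 0 of the 10 genes (adjusted p = 0.853 for both) and 1 of all genes (0.00779%), and at an unadjusted p under 0.05 it counted 628 genes (4.89%) and none of the 10. The test of whether the metastasis effect differed between the models also called 0 of the 10 genes and 0 of all genes (0.0%), with 530 genes (4.13%) and none of the 10 at an unadjusted p under 0.05. For B2m that difference, PDAC liver minus BC lung, was -1.24 ± 0.67 (adjusted p = 0.874).

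Between the tumour models, B2m and Tapbp were lower in PDAC than in BC. With site as a covariate, a comparison chosen after the values were seen, B2m fell by 1.82 ± 0.33 (adjusted p = 0.0104) and Tapbp by 1.94 ± 0.47 (adjusted p = 0.0423) on the log2 scale (SE, 5 PDAC against 4 BC libraries), and all 5 PDAC libraries were below all 4 BC libraries for both. Such non-overlap was found for 6.23% of genes, and that in the other direction, found for none of the 10, for 2.72%. The 5 PDAC libraries carry only the numbers 1 and 5, taken to mark the mouse, and all BC cells come from 1 line. The fit treated the libraries as independent, so its p-values do not measure the spread between mice. Limma called 2.97% of all genes, 1.84% as lower (145 higher and 236 lower, which became 112 and 429 when the values were rescaled without haemoglobin). The other 8 genes did not pass: Psmb8 was at -2.11 ± 0.62 (adjusted p = 0.0931), Tap1 at -2.51 ± 1.05, H2-T23 at -1.83 ± 0.88, H2-Q7 at -1.43 ± 0.88, Tap2 at -1.37 ± 0.73, H2-K1 at -1.33 ± 0.50, H2-D1 at -0.80 ± 0.39 and Nlrc5 at -0.30 ± 0.71. All 10 estimates were below 0, with a median of -1.62 beside -0.21 over all genes, and stayed below 0 under both other scalings. The median was -0.82 without PDAC primary 5, where H2-T23 was at -0.78 and H2-Q7 at -0.61. With the PDAC number as a replicate block it was -0.92, an estimate that sets only the PDAC libraries numbered 1 against BC. Nlrc5 alone turned above 0 without PDAC primary 5 (0.07) or BC primary 5 (0.13).

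The calls of B2m and Tapbp depended on single choices. With the PDAC number as a replicate block, B2m was at -1.84 (adjusted p = 0.0527) and Tapbp at -2.19 (adjusted p = 0.0705), so neither was called. The block has its own term for number 5, so these differences set the PDAC libraries numbered 1 against BC and are not the same contrast. Without BC lung metastasis 4 they were at -1.83 (adjusted p = 0.0501) and -1.62 (adjusted p = 0.233). Leaving out any other single library kept the call of B2m. The call of Tapbp was also lost without BC primary 1 (adjusted p = 0.122), BC primary 5 (0.114), PDAC primary 1 (0.0873), PDAC liver metastasis 1 (0.0731), PDAC liver metastasis 5 (0.0535) or the PDAC lung metastasis (0.0668), at differences of -2.06 to -1.74. Over 18 alternatives the adjusted p ran from 0.000227 to 0.0970 for B2m and from 0.0145 to 0.233 for Tapbp, and the direction held in each. Without PDAC primary 5, B2m (-1.84) and Tapbp (-2.03) were again the only genes called among the 10, while without PDAC primary 1 B2m, H2-K1 and Psmb8 were called, beside 92 of all genes higher and 141 lower. The 6 leukocyte markers all stood higher in PDAC, 2 of them called, and the 10 macrophage markers likewise, 4 of them called. In PDAC primary 5 the leukocyte sum, 60.4 RPKM, lay within the BC range of 32.4 to 110 RPKM. The macrophage sum there, 942 RPKM, lay above the BC range of 400 to 660 RPKM. The part of these cells in the difference between the models was not tested.

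Comparing the primaries alone gave the same directions with weaker tests. All 10 genes were lower in PDAC, with a median of -1.61 beside -0.31 over all genes, and limma called 0 of the 10 and 4 of all genes (0.0312%). Tapbp was at -1.63 ± 0.64 (adjusted p = 0.324) and B2m at -1.16 ± 0.47 (adjusted p = 0.337), the 2 that passed an unadjusted p under 0.05, as 1693 genes did (13.2%). H2-T23 was at -2.30 ± 1.38. Without PDAC primary 5 the median of the 10 was -0.06, with 4 above 0, and H2-T23 was at 0.40. Without PDAC primary 1 limma called H2-T23 (-5.01), H2-Q7 and Psmb8 lower, with a median of -2.93 over the 10, in a fit with 1 PDAC primary that called 264 of all genes higher and 539 lower.

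Other genes of the class I pathway were read from a list, of which 20 were found and 19 tested. In BC lung metastasis 12 of 19 stood above 0 (median 0.79), beside 35.6% of all genes (median -0.29). In PDAC liver metastasis 10 of 19 did (median 0.20), beside 53.9% of all genes (median 0.08). In either, 0 were called, and 3 and 1 were higher at an unadjusted p under 0.05, beside 2.07% and 6.40% of all genes in either direction. In PDAC against BC over both sites 18 of 19 were below 0 (median -1.94), while 42.5% of all genes were above 0 (median -0.21). Of the 19, 2 were called lower, beside 1.84% of all genes. Both are Qa-region heavy chain genes: H2-Q4 fell by 4.02 ± 0.92 (adjusted p = 0.0353), from 69.4 to 123 RPKM in BC to 0.390 to 34.6 RPKM in PDAC, and H2-Q1, named after its values were seen, fell by 3.64 ± 0.75 (adjusted p = 0.0218), from 12.0 to 31.0 RPKM to 0.0274 to 3.08 RPKM. H2-Q4 was called in 9 of 18 alternatives (adjusted p 0.0128 to 0.143) and H2-Q1 in 12 of 18 (0.00852 to 0.0999), with all differences below 0. Both calls were lost without BC primary 1 (H2-Q4 0.0980, H2-Q1 0.0796), BC primary 5 (0.0966, 0.0656), BC lung metastasis 4 (0.143, 0.0999), PDAC primary 1 (0.0728, 0.0597) or PDAC liver metastasis 1 (0.0504, 0.0543), and that of H2-Q4 also without BC lung metastasis 6 (0.0753) or the PDAC lung metastasis (0.0552). H2-Q6 was at -2.44 ± 0.98 (adjusted p = 0.197), with 109 RPKM in PDAC primary 1 and 0.413 to 49.6 RPKM in the other PDAC libraries, against 88.0 to 184 RPKM in BC. H2-Q genes are near-identical, and the labels name no strain, so their separate levels are uncertain, and strain and tumour model cannot be told apart. Psme1 and Psme2, the proteasome activator genes induced by interferon-gamma, stood higher in the BC metastases without overlap. Psme1 went from 167 and 149 RPKM (primaries) to 376 and 537 RPKM (metastases) and Psme2 from 204 and 163 RPKM to 456 and 691 RPKM. Their log2 differences, 1.5 ± 0.55 and 1.62 ± 0.60 with 2 against 2 libraries, did not pass limma's test (adjusted p = 0.974 for both). In PDAC primary 5 they were at 124 and 126 RPKM, inside the ranges of 120 to 158 RPKM and 89.2 to 195 RPKM over the rest of PDAC.

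The general chaperones of the endoplasmic reticulum did not share the low values of PDAC primary 5. Calr was at 182 RPKM there, the highest of the PDAC libraries, and Pdia3, the disulphide isomerase ERp57 of the loading complex, at 147 RPKM, inside the range of 63.5 to 202 RPKM over the rest of PDAC. Canx, which encodes calnexin and holds new heavy chains, was at 42.2 RPKM, within the 12.3 to 63.6 RPKM of the others. Erap1, which trims peptides to their final length, was low in most libraries: 8.40 and 18.2 RPKM in the BC primaries, 9.23 RPKM and 0 in BC lung metastases 4 and 6, at most 0.668 RPKM in the PDAC primaries, and 8.98, 1.97 and 0 RPKM in the PDAC metastases. The other non-classical heavy chain genes went both ways between the PDAC primaries. H2-T22 was at 0.00935 RPKM in primary 5 against 12.5 RPKM in primary 1, H2-M3, which presents formylated peptides, at 0.0444 against 80.1 RPKM, H2-Q6 at 0.413 against 109 RPKM and H2-Q10 at 1.45 against 6.97 RPKM. H2-Q1, H2-Q2 and H2-Q4 were higher in primary 5, at 1.16 against 0.282, 6.5 against 0.575 and 9.45 against 2.59 RPKM. H2-Q2 and H2-Q10 are named after their values were seen. H2-M3 was also near 0 in PDAC liver metastasis 1, at 0.0805 RPKM, while H2-T23 was at 43.7 RPKM there.

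Of 14 interferon signalling genes limma called none in any comparison, beside 2.97% of all genes in PDAC against BC over both sites. In that comparison 8 of the 14 were below 0, with a median of -0.39 beside -0.21 over all genes. Irf1, an activator of class I genes, was not low in PDAC primary 5: it was at 49.3 RPKM there, above the 23.4 RPKM of primary 1, and the PDAC lung metastasis had 76.5 RPKM. Ifng itself was above 1 RPKM only in the PDAC liver metastases, at 6.62 and 4.49 RPKM. Rfx5, a subunit of the promoter complex that Nlrc5 joins, stayed at or below 1.64 RPKM in every library.

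Across the 9 libraries, H2-K1, Tap2, Psmb8 and H2-T23 ran closest to the mean of the 10 genes (Pearson r of centred log2 values 0.95, 0.95, 0.94 and 0.92), while B2m (0.76), Tapbp (0.59) and Nlrc5 (0.44) ran least with it. Each gene is part of that mean, and the libraries differ in depth and in the number of genes listed, so these values are a description. Among 6417 other genes with a mean of at least 5 RPKM, those most like the mean were Ifi47, an interferon-gamma-induced GTPase gene (0.96), and Acbd6, Rbbp4, H2-Q6 and Tfam (0.95 each). For Ifi47 the BC primaries had 35.8 and 33.1 RPKM, the BC lung metastases 146 and 53.3 RPKM, and PDAC primary 5 only 0.0138 RPKM. Acbd6, which binds acyl-CoA, Rbbp4, a chromatin protein, and Tfam, which packs mitochondrial DNA, were at 0 to 0.0767 RPKM in PDAC primary 5, where Ifi47 was near 0 too.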

How the data were processed

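The authors deposited 1 table of 23799 genes with 9 columns of values, all used. The table's name says CPM, but its columns summed to 288171 to 992077, and values multiplied by exonic length (GENCODE M21, found for 93.0% of genes) gave whole multiples of 1 step for 62.4 to 74.1% of low values (under 20 reads, within 0.02 of a whole number), against 3.1 to 7.8% without length. The authors' deposited values were taken to be RPKM for this reason. Per the submitters' processing notes the genome was mm9; the aligner, counter and annotation are not given in the sources used here. Per the labels' protocols, RNA was made into cDNA with the SMART-seq v4 kit and into libraries with Nextera XT, neither of which marks strand.

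Values were tested as log2(RPKM + 1) with limma 3.58.1 (R 4.3.3; trend and robust moderation, two-sided, Benjamini-Hochberg over 12832 genes, called at an adjusted p under 0.05). This scale understates changes of low genes. Contrasts came from 1 mean per group (4 residual degrees of freedom), and the comparisons over both models or both sites from an additive fit (6 residual degrees of freedom). Scripts were tested on simulated data. Genes named are the 10 members, a set choice of genes from the pathway, regulator and marker lists, and the 5 genes with the highest correlation to the members' mean; the few named after their values were seen are marked so. The members, lists and tests were chosen with earlier results of these data known. Alternatives were other pseudocounts, filters, scalings, moderation, sets of libraries and a replicate block.

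By the labels metastases were matched to primaries, and genotype and age go with the number in PDAC, so the number was taken to mark the mouse in PDAC. Checked across 12832 genes, the deviations from the group mean of the PDAC primary and the liver metastasis numbered 1 had r = -0.17. BC groups share no number. Promoter sequences are those of RefSeq on GRCm38.p6, and no positions of the table's own build were used.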

Additional observations from a re-analysis of the deposited data

How the results depend on the processing

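With 2 libraries or fewer in a group, these tests can miss sizeable changes, and values near 1 or 2 reads (Tap1, Nlrc5) carry no fold. In BC lung metastasis, in both metastasis sites over both models and in the difference of the metastasis effect, 0 of the 10 genes were called under each alternative. Leaving out 1 library gave 0 to 2 called genes for PDAC liver and for PDAC lung metastasis, 0 to 3 for PDAC against BC primary and 0 to 3 for PDAC against BC over both sites, where the reported count is 2. For the last, the count was 5 with quantile scaling, 1 with no filter, 0 without trend and robust moderation, 0 with the replicate block and 1 without the 3 libraries with the fewest genes. Quantile scaling gave 1 for PDAC against BC primary (B2m, -2.47). The replicate block changed no other call of the 10. Between the models, the fit with that block sets only the PDAC libraries numbered 1 against BC. H2-D1 in PDAC liver metastasis turned to -0.02 with quantile scaling. Without PDAC primary 5, and without the 3 libraries with the fewest genes, H2-T23 turned to -1.10 in PDAC liver metastasis and to 0.40 in PDAC against BC primary. Left-out libraries spanned -1.10 to 4.31, -0.28 to 5.12 and -5.01 to 0.40 for H2-T23 in PDAC liver, PDAC lung and PDAC against BC primary, and -0.85 to 0.13 for Nlrc5 over both sites. The causes were not tested. Rescaling without haemoglobin moved the median of all genes from -0.29 to -0.65 in BC and from -0.21 to -0.60 between the models, and took calls between the models from 145 higher and 236 lower to 112 and 429. Calls over all genes ranged from 0 to 73 (BC), 0 to 1032 (PDAC liver), 0 to 1547 (PDAC lung), 0 to 803 (primaries), 0 to 30 (difference of effects), 0 to 10 (both models) and 153 to 1145 (both sites). The stricter filter removed Nlrc5, and the fits over both models or sites have no version with fewer groups.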
